A study of Mus musculus with 6 samples.

Results

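A set of 10 transcription factors that specify and maintain the insulin-producing beta cell was followed in islets with and without the farnesoid X receptor (FXR): *Mafa*, *Pdx1*, *Nkx6-1*, *Nkx2-2*, *Neurod1*, *Isl1*, *Pax6*, *Foxa2*, *Rfx6* and *Insm1*. They were taken by gene symbol from the table of gene counts, where all 10 were found among 19342 genes, and all 10 passed the filter on low counts with 14619 genes in all. RNA was sequenced from islets of FXR+/+ and FXR-/- mice at 3 months of age. Islets had been released from the pancreas with collagenase P, and mRNA had been enriched with oligo(dT) beads. Each genotype had 3 libraries, from 1 female and 2 males (female 1, male 1 and male 2). The mice were on a C57Bl/6 background. The knockout lacks the bile acid receptor encoded by *Nr1h4*, and neither the labels nor the methods name a promoter or cell type that would restrict the loss to beta cells. Whether a library held the islets of 1 mouse or of several is not stated, so p-values measure the spread between libraries. The question was whether the program of transcription factors that gives the beta cell its identity differed between the genotypes.

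These factors work as a network on the insulin gene and on the genes of glucose sensing and hormone secretion. *Foxa2* and *Rfx6*, and then *Insm1*, *Neurod1*, *Nkx2-2*, *Pax6* and *Isl1*, act while endocrine cells form and remain present in several islet cell types. *Pdx1* and *Nkx6-1* become largely restricted to beta cells among islet cells, and *Mafa* comes on last, in the mature beta cell.

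*Mafa*, the basic leucine zipper factor that binds and activates the insulin promoter, is a gene of 1 exon read from the minus strand, at chr15:75745490-75748228 in GENCODE vM21 (GRCm38). In the table of exon counts it is listed as 1 exon of 1080 bases, from 75746843 to 75747922, which is its coding sequence with the stop codon and no UTR. Its gene counts equalled its exon counts, so the values below are reads on the coding sequence. Reads that fit a second gene could have been counted for either, so identical runs were looked up. Against all other annotated transcripts, on either strand and leaving out genes that overlap a member, the longest identical run was 31 bases for *Mafa* and 31 for *Isl1*. It was 36 bases for *Nkx6-1*, 41 for *Nkx2-2* (with *Nkx2-4*) and 38 for *Foxa2* (with *Foxa1*). *Pax6* and *Insm1* each had a longer run in common with the transcript of *Gm11027*, of 129 and 131 bases.

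The 6 libraries held 20629306 to 30139235 counts in genes. *Nr1h4*, the gene targeted in the knockout, had 14.2, 13.6 and 12.2 CPM (TMM-scaled counts relative to library size) in FXR+/+ female 1, male 1 and male 2, and 5.67, 7.63 and 5.81 CPM in the same order in FXR-/-. The FXR-/- libraries were all lower, as their labels say, but reads of the gene were still counted. The islet hormones were abundant in every library, with *Ins2* at 132377 to 199905 CPM and *Gcg* at 20218 to 35866 CPM. Acinar RNA varied between libraries: the summed level of 22 acinar markers ran from 49673 to 149021 CPM in FXR+/+ and from 70733 to 169977 CPM in FXR-/-, highest in male 1 of both genotypes. The summed level of 6 endothelial markers was 437 to 519 CPM in FXR+/+ and 538 to 867 CPM in FXR-/-, without overlap, and all 6 were higher in FXR-/-. The 10 immediate early genes summed to 231 CPM in FXR+/+ male 2 and to between 1198 and 7000 CPM in the other libraries. What part these differences had in the results below was not tested, except where a value is given. In bulk islets, fewer beta cells and less RNA per beta cell cannot be told apart.

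*Mafa* was the member that differed most. It stood at 314, 317 and 324 CPM in FXR+/+ female 1, male 1 and male 2, and at 446, 477 and 495 CPM in FXR-/-. The groups did not overlap, and every FXR-/- library was well above every FXR+/+ library. The FXR+/+ libraries varied by 1.57% (coefficient of variation) and the FXR-/- libraries by 5.18%, where the lowest count of 6395 reads alone gives 1.25%. The log2 fold change was 0.57 ± 0.088 (SE, n = 3 per genotype), a 1.48-fold higher level with a 95% interval of 1.29 to 1.71. Its p of 2.68e-04 ranked 17 among the 14619 genes, and its Benjamini-Hochberg adjusted p in edgeR's quasi-likelihood test was 0.217, which did not pass 0.05. DESeq2 gave 0.56 with an adjusted p of 8.9e-11. An exact two-sided permutation test of 3 libraries against 3 gave p = 0.1, the smallest it can give with 20 relabellings. Within the pairs of the same sex and number, *Mafa* was 1.42-fold (female 1), 1.51-fold (male 1) and 1.53-fold (male 2) higher in FXR-/-.

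**Figure D1:**
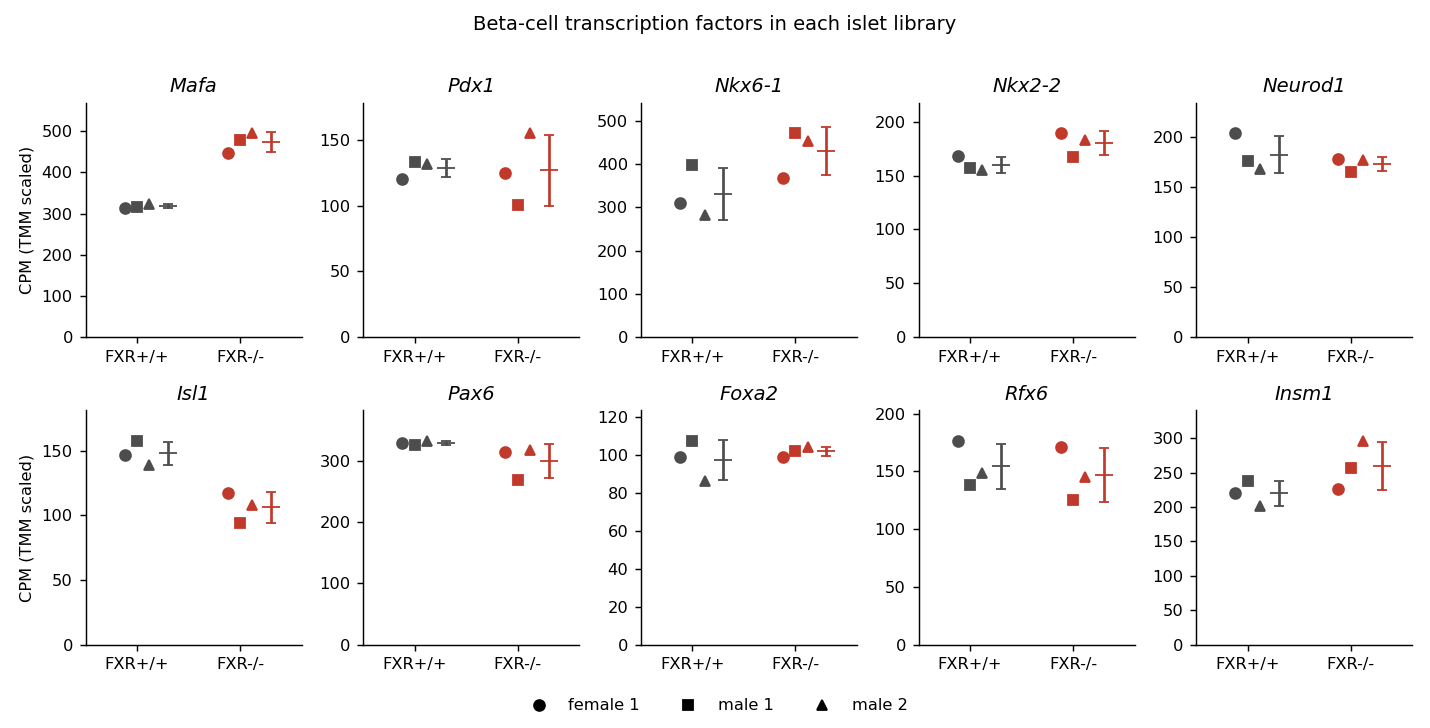
Each panel shows 1 transcription factor, with CPM (TMM scaled, from 0) in the 3 FXR+/+ and 3 FXR-/- libraries and, beside them, the mean ± SD. *Mafa* lies higher and *Isl1* and *Pax6* lie lower in all FXR-/- libraries, while the other 7 factors overlap.

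*Isl1*, a LIM homeodomain factor that binds the insulin enhancer with its cofactor *Ldb1* and is shared by all islet endocrine cells, was lower in FXR-/-. Its level was 147, 157 and 139 CPM in FXR+/+ female 1, male 1 and male 2, and 117, 93.6 and 107.8 CPM in FXR-/-. No FXR-/- library reached the lowest FXR+/+ library, and male 1 had the widest gap. The log2 fold change was -0.48 ± 0.099 (SE), which puts FXR+/+ 1.40-fold above FXR-/-. In edgeR the unadjusted p was 0.00153 and the adjusted p 0.266, while DESeq2 gave -0.49 with an adjusted p of 0.00213.

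*Pax6*, a paired homeodomain factor needed for all hormone genes of the islet, read 329, 325 and 332 CPM in FXR+/+ and 314, 268 and 317 CPM in FXR-/-. The FXR+/+ libraries were very close together, with a coefficient of variation of 1.06%, and all 3 FXR-/- libraries lay below them. Only male 1 was far below, and the log2 fold change of -0.13 ± 0.097 had an adjusted p of 0.602 in edgeR and 0.643 in DESeq2.

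*Pdx1*, the homeodomain factor that drives pancreas formation and later insulin transcription, was at 121, 133 and 132 CPM in FXR+/+ and at 125, 101 and 155 CPM in FXR-/-. The FXR-/- libraries lay on both sides of the FXR+/+ libraries and varied by 21.4%, against 5.36% in FXR+/+. The log2 fold change was -0.02 with a 95% interval of -0.36 to 0.33, and it became 0.15 without FXR-/- male 1.

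*Nkx6-1*, which holds beta cells apart from the other endocrine types, was at 311, 399 and 282 CPM in FXR+/+ and 369, 471 and 453 CPM in FXR-/-. Each FXR-/- library was above its own pair, but FXR+/+ male 1 lay above FXR-/- female 1. Its log2 fold change was 0.37 ± 0.14, with an unadjusted p of 0.0298 and an adjusted p of 0.457 in edgeR and of 0.207 in DESeq2. Without FXR+/+ male 2, its lowest library, the log2 fold change was 0.23, and with a term for acinar RNA in the fit it was 0.25.

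*Nkx2-2*, a homeodomain repressor and activator of the same network, had 169, 157 and 155 CPM in FXR+/+ and 189, 167 and 183 CPM in FXR-/-. Here too each FXR-/- library exceeded its pair, and the groups overlapped by a small margin. The log2 fold change of 0.17 ± 0.077 had an adjusted p of 0.487 in edgeR.

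*Insm1*, a zinc finger transcriptional repressor that endocrine cells need to differentiate, read 221, 238 and 202 CPM in FXR+/+ and 227, 257 and 296 CPM in FXR-/-. FXR-/- male 2 was the highest library, and female 1 hardly differed between genotypes. The log2 fold change was 0.23 ± 0.11 and the adjusted p in edgeR 0.492. The log2 fold change was 0.14 without FXR+/+ male 2 and 0.15 without FXR-/- male 2.

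Little separated the genotypes for the other 3 factors. *Neurod1*, the basic helix-loop-helix activator of the insulin E-box, ranged from 167 to 203 CPM in FXR+/+ and from 165 to 177 CPM in FXR-/- (log2 fold change -0.07, 95% interval -0.27 to 0.12). *Rfx6*, a winged-helix factor of the insulin secretion genes, ranged from 139 to 176 CPM and from 125 to 171 CPM (-0.08, -0.28 to 0.13). *Foxa2*, a forkhead factor that opens chromatin at pancreatic genes, ranged from 86.3 to 107.2 CPM and from 99.0 to 104.1 CPM (0.06, -0.16 to 0.29). For these 3 genes the groups overlapped, and the 95% intervals reached no further than 0.29 on the log2 scale in either direction. The intervals are not adjusted for the number of genes, and a larger difference is not excluded.

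By edgeR's quasi-likelihood test none of the 10 factors was called at an adjusted p under 0.05, as was none of the 14619 genes (0%). With the replicate number as a block it again called none of the 10, where 0.157% of all genes were called. At an unadjusted p under 0.05, 2 were higher and 1 was lower, 3 of 10 where 10.3% of all genes passed. DESeq2 called 2 of the 10, *Mafa* and *Isl1*, where it called 1.37% of the genes it tested. In 1 of 10 all FXR-/- libraries were above all FXR+/+ libraries (8.02% of all genes), and in 2 of 10 they were all below (7.37% of all genes). The log2 fold changes were positive for 5 factors and negative for 5, with a median of 0.02 beside 0.01 over all tested genes. Scaling by library size alone moved the median of all genes to -0.09, the median of the 10 factors to -0.07 and *Mafa* to 0.47, and it turned *Foxa2* to -0.03. Among 465 tested genes whose annotation in the table includes DNA-binding transcription factor activity, a term that 5 of the 10 members carry there, *Mafa* had the lowest p and *Isl1* the sixth lowest, and DESeq2 called 9.

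**Figure D2:**
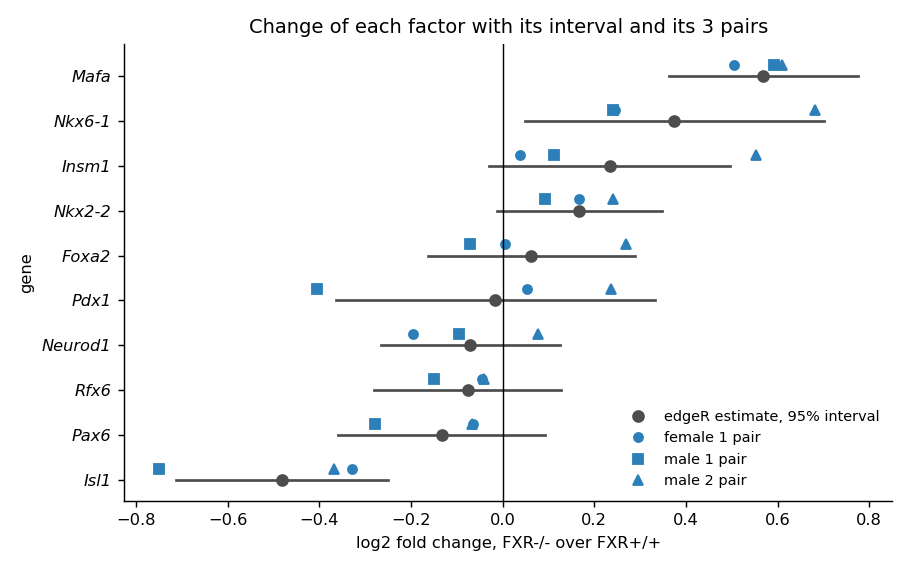
Log2 fold change of each transcription factor, FXR-/- over FXR+/+, with the edgeR estimate and its 95% interval in grey and the ratio within each pair of libraries in blue. *Mafa* and *Nkx6-1* have intervals above 0 and *Isl1* has one below 0, and the 3 pairs of *Mafa* lie closest together among these.

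Levels of different genes were compared as CPM per kilobase of listed exon. In FXR+/+, *Mafa* was highest at 295 ± 4.64 (SD, n = 3), followed by *Nkx6-1* at 184 ± 33.9 and *Pdx1* at 99.9 ± 5.36. The ranges of these 3 did not overlap with each other or with the factors below them. *Neurod1* (73.0), *Insm1* (72.8), *Pax6* (69.0) and *Nkx2-2* (65.4) came next, with ranges that overlapped from each to the next. *Isl1* followed at 58.5 ± 3.65, apart from its neighbours, and *Rfx6* (41.8) and *Foxa2* (41.1) overlapped at the end. In FXR-/-, *Mafa* was at 438 ± 22.7, *Nkx6-1* at 240 ± 30.6 and *Pdx1* at 98.7 ± 21.1, and *Isl1*, at 42.0 ± 4.67, now overlapped with *Rfx6* and *Foxa2*. Among the 465 annotated factors *Mafa* ranked 2 per kilobase in FXR+/+, behind the immediate early gene *Fos* (327 CPM per kilobase), and 1 in FXR-/-, where *Fos* was at 360. These are ranks of the means of each genotype, and *Fos* ran from 30.7 to 1216 CPM in FXR+/+ and from 296 to 1256 CPM in FXR-/-. Per kilobase *Mafa* was above *Fos* in FXR+/+ male 2 and below it in FXR-/- male 1. For *Mafa* only the coding sequence was listed, and for *Pax6*, *Rfx6* and *Isl1* exons of several transcripts were listed together, so the levels per kilobase depend on the listed length.

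**Figure D3:**
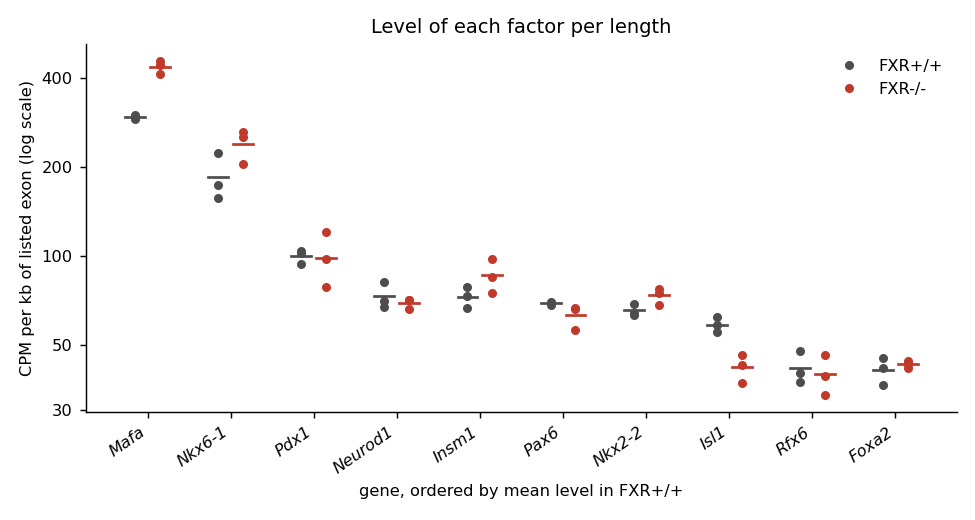
CPM per kilobase of listed exon (log scale) of the 10 factors in each library, ordered by the FXR+/+ mean, with lines at the group means. *Mafa* is the highest in both genotypes, and *Isl1* drops from 58.5 in FXR+/+ to 42.0 in FXR-/-, beside *Rfx6* and *Foxa2*.

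The exon counts were tested in the same way. Of 58 exons listed for the 10 factors, 42 passed the filter, and edgeR called 0 of them, where it called 0.0185% of 26998 exons. At an unadjusted p under 0.05, 2 were higher and 4 were lower, 6 of 42 where 7.79% of all exons passed. All 6 exons of *Isl1* were lower, by 0.19 to 0.93 on the log2 scale, and in 3 of them no FXR-/- library reached FXR+/+. Its listed exon of 1327 bases, chr13:116298270-116299596, covers the last coding bases and the UTR behind them, and had 1598, 1253 and 1970 counts in FXR+/+ female 1, male 1 and male 2 and 1082, 705 and 987 counts in FXR-/-. Its log2 fold change was -0.65 ± 0.12 with an adjusted p of 0.209 in edgeR. With the replicate number as a block it was called (adjusted p 0.0217), as were 0.485% of all exons, and DESeq2 gave it an adjusted p of 0.00177, where 0.423% of the exons it tested were called. DESeq2 also called the exon of *Mafa* (adjusted p 0.00317).

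Of the 10 tested exons of *Pax6*, 9 were lower, by 0.06 to 0.64 on the log2 scale, and in 3 of them the FXR-/- libraries were all below. The last exon, chr2:105696270-105698410, which carries the stop codon and the UTR after it, held 11113 of the 14392 exon counts of the gene and had a log2 fold change of -0.31 ± 0.14 (adjusted p 0.638, edgeR). *Rfx6* was mixed, with 3 of its 12 tested exons higher and 9 lower. The first exon of *Rfx6* was higher in all FXR-/- libraries (0.27 ± 0.19), whereas the exon from 51726682 to 51726894 of chromosome 10 was at -0.93 ± 0.35. For *Nkx6-1* the 5′ exon of 1150 bases was at 0.46 ± 0.18 and the 3′ exon of 472 bases at 0.26 ± 0.13, and the middle exon of 173 bases, with 312 counts in all, at -0.12 ± 0.31. Over all factors the FXR-/- libraries were all below FXR+/+ in 6 exons and all above in 4, where the shares of all exons were 5.73% and 6.42%. Exon counts made up 100% of the gene counts of *Mafa* and *Insm1*, which are listed with 1 exon each, 56.4% for *Isl1*, 41.8% for *Rfx6* and 31.9% for *Pax6*. Over all genes they made up 32.3% to 36.6% of the gene counts of a library, so a low share was general in these data.

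**Figure D4:**
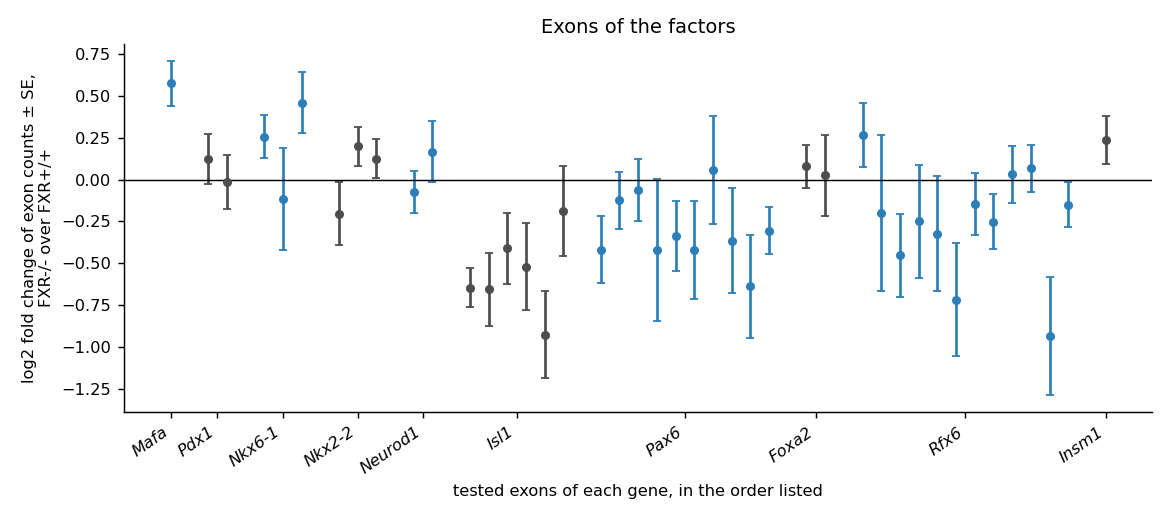
Log2 fold change of counts ± SE, FXR-/- over FXR+/+, for the 42 tested exons of the 10 factors, in the order of position along the chromosome within each gene. All 6 exons of *Isl1* and 9 of 10 exons of *Pax6* lie below 0, and the only exon of *Mafa* is at 0.57.

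Ratios within a library do not depend on the scaling between libraries. Both ratios given here were picked after the values were seen. *Mafa* over *Isl1* was 2.14, 2.01 and 2.33 in FXR+/+ female 1, male 1 and male 2 and 3.81, 5.10 and 4.59 in FXR-/-, 2.07-fold higher on average without overlap. This ratio could not overlap, since *Mafa* was above and *Isl1* below in all FXR-/- libraries. *Mafa* over *Pdx1* was 2.61, 2.38 and 2.46 in FXR+/+ and 3.56, 4.74 and 3.19 in FXR-/-, 1.52-fold higher on average. The lowest FXR-/- library was above the highest FXR+/+ library here as well, and FXR-/- male 1, where *Pdx1* was lowest, was the highest.

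**Figure D5:**
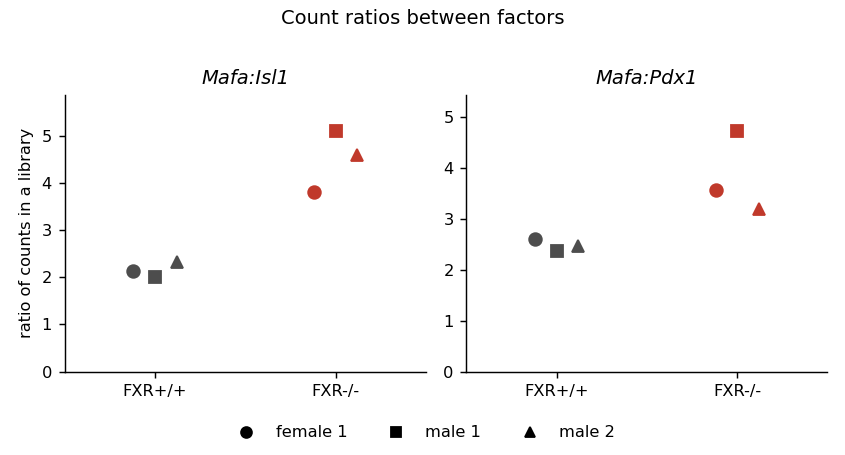
Ratio of the counts of 2 factors within each library, from 0, for *Mafa* to *Isl1* and *Mafa* to *Pdx1*, both picked after their values were seen. The ratio to *Isl1* is 2.01 to 2.33 in FXR+/+ and 3.81 to 5.10 in FXR-/-, and that to *Pdx1* is 2.38 to 2.61 and 3.19 to 4.74. The ratio to *Isl1* could not overlap, since *Mafa* was above and *Isl1* below in all FXR-/- libraries.

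Sex was tested with the same fit. edgeR called none of the 10 factors between males and females, where it called 0.0547% of genes, and 1 had an unadjusted p under 0.05. This was *Rfx6*, at 176 and 171 CPM in the 2 female libraries and 125 to 149 CPM in the 4 male libraries, a log2 difference of male over female of -0.32 ± 0.091 (adjusted p 0.552, edgeR). For the interaction of genotype and sex, 0 of the 10 were called by edgeR or by DESeq2 and 0 had an unadjusted p under 0.05, with 1 female library per genotype.

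The genes that these factors act on were followed in a list of 16. edgeR, with or without the replicate block, and DESeq2 called 0 of the 16, and 1 had an unadjusted p under 0.05, where 10.3% of all genes passed. The list had 11 members higher and 5 lower in FXR-/-, and a median log2 fold change of 0.06 beside 0.01 for all genes. *Ppp1r1a*, an inhibitor of protein phosphatase and a known marker of *Mafa* function, was the only one whose groups did not overlap, at 266, 287 and 262 CPM in FXR+/+ and 292.8, 358.9 and 392.3 CPM in FXR-/- (log2 fold change 0.35 ± 0.10, adjusted p 0.430, edgeR). That is 1 of 16, where 8.02% of all genes had all FXR-/- libraries above and 7.37% had them all below. *G6pc2*, the islet glucose-6-phosphatase subunit that opposes glucokinase, had the largest log2 fold change of the 16 in size, in the other direction, and is named after its values were seen. It was at 1814, 1659 and 1884 CPM in FXR+/+ and 1125, 1257 and 1703 CPM in FXR-/-, where male 2 lay above FXR+/+ male 1 (-0.40 ± 0.19, adjusted p 0.491 in edgeR and 0.174 in DESeq2). DESeq2 with the replicate block called it (adjusted p 0.0289), a setting added after seeing the data. The hormone genes overlapped between the genotypes: *Ins2* had 134603 to 156034 CPM in FXR+/+ and 132377, 159270 and 199905 CPM in FXR-/- female 1, male 1 and male 2, and *Ins1* had 32792 to 54075 CPM and 38743 to 53032 CPM. Both FXR-/- male libraries were above the FXR+/+ range of *Ins2*. The edgeR standard errors were 3.06 for *Ins2* and 1.21 for *Ins1* on the log2 scale, so the fit could not resolve a change of either. *Iapp*, which encodes islet amyloid polypeptide, had 12879 to 16818 CPM and 12724 to 14848 CPM.

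Other endocrine factors were also followed. Of 15 on the list, 13 were tested, since *Pax4* and *Foxa1* did not pass the filter. edgeR and DESeq2 called 0 of the 13, and at an unadjusted p under 0.05 there were 0 higher and 2 lower, where 10.3% of all genes passed in either direction. Both were genes with all FXR-/- libraries below, as were 7.37% of all genes. *St18* had 124, 127 and 132 CPM in FXR+/+ and 115, 95.1 and 102.0 CPM in FXR-/- (-0.30 ± 0.089, adjusted p 0.427, edgeR), and *Hnf4a* had 39.0, 37.2 and 37.9 CPM and 33.3, 29.1 and 34.1 CPM (-0.24 ± 0.090, adjusted p 0.457). The most abundant were *Mlxipl*, the glucose-responsive factor ChREBP, at 214 to 321 and 225 to 237 CPM, *Tshz1* at 131 to 148 and 121 to 151 CPM, and *St18*. The median of the list was -0.11.

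The 6 factors of alpha, delta and pancreatic polypeptide cells gave no call by edgeR or DESeq2, 0 with an unadjusted p under 0.05 and no gene without overlap. *Irx1* was at 18.5 to 36.4 CPM in FXR+/+ and 27.4 to 36.7 CPM in FXR-/-, with FXR+/+ male 2 the lowest library. The 8 factors of acinar and duct cells gave no call by either tool and 1 with an unadjusted p under 0.05, where 10.3% of all genes passed. This was *Sox9*, at 2.27 to 5.45 CPM in FXR+/+ and 4.96 to 8.41 CPM in FXR-/-. Among the most abundant of this list were *Bhlha15*, at 67.9 to 86.5 and 49.1 to 83.9 CPM, and *Gata6*, at 14.6 to 19.5 and 17.1 to 25.7 CPM.

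Cofactors through which these proteins act on chromatin numbered 19, and 0 were called by edgeR or DESeq2 or had an unadjusted p under 0.05. *Smarca4*, the ATPase of the Swi/Snf complex that *Pdx1* recruits, was at 163 to 171 CPM in FXR+/+ and 179 to 200 CPM in FXR-/- (0.17 ± 0.079, adjusted p 0.487, edgeR), the only cofactor with all FXR-/- libraries above. *Rcor1*, a corepressor, was the only one with all below, at 20.2 to 21.6 and 19.3 to 19.7 CPM. These are 1 of 19 each, where 8.02% of all genes had all FXR-/- libraries above and 7.37% all below, so neither count exceeds the share over all genes. The other abundant ones were *Chd4*, at 279 to 309 and 265 to 307 CPM, and *Kmt2d*, at 160 to 195 and 170 to 190 CPM. *Ldb1*, the partner of *Isl1*, was at 125 to 151 and 121 to 133 CPM.

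Genes with the pattern across the 6 libraries most like that of *Mafa* were *Coro2b* (Pearson r 0.994 of log2 CPM), *Efemp2* (0.992) and *Rbfa* (0.989), and 35 of 9206 genes compared had r over 0.95. For *Nkx6-1* they included *Ptp4a3* (0.997) and *Rit1* (0.997), with 83 over 0.95, and for *Pdx1* they were *Abcb4* (0.990), *Dtd2* (0.987) and *Sfi1* (0.979), with 11. These are descriptions over 6 libraries that differ in depth and tissue composition as well as in genotype, and the part of each was not tested.

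Position was the last feature compared. *Neurod1*, *Pax6*, *Insm1*, *Nkx2-2* and *Foxa2* are on chromosome 2, where *Nkx2-2* lies 0.953 Mb from *Insm1* and 0.849 Mb from *Foxa2*. *Rfx6* shares chromosome 10 with *Nr1h4*, at a distance of 37.7 Mb. *Mafa* and *Isl1*, with *Nkx6-1*, *Foxa2*, *Rfx6* and *Insm1*, overlap no other annotated gene. Antisense genes overlap *Pdx1* (*Plut*, not tested), *Nkx2-2* (*Nkx2-2os*, not tested, and *6430503K07Rik*) and *Pax6* (*Pax6os1*). *6430503K07Rik* was at 9.27 to 12.1 CPM in FXR+/+ and 7.84 to 10.2 CPM in FXR-/-, and *Pax6os1* at 12.6 to 15.2 and 7.99 to 14.7 CPM, both far below the factor they overlap. The protocol names no step that marks strand, so reads of these antisense genes and of their partners cannot be told apart. *Neurod1* overlaps *Cerkl*, on the same strand, at 16.0 to 17.4 and 15.7 to 18.7 CPM, and *Gm26755*, not tested.

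The nearest tested gene to *Mafa*, looked up after the values of *Mafa* were seen, was *Zc3h3*, 6202 bases from the 5′ side of *Mafa*. Its log2 fold change was 0.85 ± 0.15 (adjusted p 0.225, edgeR), with all FXR-/- libraries above FXR+/+. *Rhpn1*, the nearest on the other side at 30005 bases, had 0.35 ± 0.18, also without overlap. For *Isl1* the nearest tested gene, *Parp8*, was 545131 bases away and had 0.03 ± 0.090.

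Promoter sequences of RefSeq (GRCm38.p6) were given for 8 of the 10 factors, in 11 entries, and the 250 bases before each start were searched on both strands for the nuclear receptor half-site AGGTCA and for the inverted repeat AGGTCANTGACCT that FXR binds with its partner RXR, which contains the half-site. None of the 11 entries held either, where 14.0% of 32851 promoter entries held the half-site and 0.00609% the inverted repeat. *Mafa* and *Insm1* had no entry, so their promoters were not searched. An entry need not lie before the first start of its gene. The *Rfx6* window, 51685268 to 51685517 of chromosome 10, lies inside the gene, which starts at 51677760. The only *Nkx2-2* window, 147186403 to 147186652 of chromosome 2, also lies inside its gene, which is read from the minus strand and reaches 147195434. *Foxa2* and *Pax6* have windows inside the gene as well as before its first start. The search says only that these letters are not in these windows.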

How the data were processed

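The authors deposited gene counts as whole numbers, one column per library, and counts per exon with GRCm38 positions. HISAT is the only tool that the submitters' processing notes name. The rules of counting are not given in the sources used here. A deposited comparison of the genotypes (mean signal, log2 fold change, p-value and q-value) was not used. All columns of per-sample values were matched to a library.

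Groups were taken from the genotype labels. The tests ran in edgeR 4.0.16 (R 4.3.3): filterByExpr (minimum count 10, minimum total 15), TMM scaling, glmQLFit and glmQLFTest on a model of sex plus genotype over 14619 genes, and Benjamini-Hochberg adjustment over all of them. Calls are adjusted p under 0.05. CPM are TMM scaled, and standard errors and 95% intervals come from the F statistic with 3 residual and 4.43 prior degrees of freedom. Exons were fitted alike. Correlations used log2 CPM with a prior count of 2, over genes with a mean of at least 10 CPM. Permutation tests of 3 libraries against 3 were exact and two-sided. Library totals were 20629306 to 30139235 counts. The scripts were tested on simulated data.

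Same-numbered libraries deviated together from the means of their genotypes (correlations 0.361, 0.367 and 0.323 across genes, against 0.0200 or less for other pairs). The numbers in the labels were therefore taken as pairing the libraries, and what they mark is not stated. These correlations come from the same counts that the pairs and the replicate block were used on. Deviations from a genotype mean cancel within that genotype, so the correlations depend on each other. They are no separate support for the pairing, and what makes the libraries deviate together was not tested. Alternatives were DESeq2 1.42.0, other scalings and filters, a replicate block, the acinar level as a covariate and the omission of single libraries. The members and gene lists were chosen with earlier results of these data known. The genes named are the 10 members, and of each other list those whose genotypes did not overlap and the 3 most abundant. They also include *Nr1h4*, the 3 genes most like *Mafa*, *Pdx1* and *Nkx6-1*, and genes that overlap a member. *G6pc2*, *Ldb1*, *Sox9*, *Fos*, *Zc3h3*, *Rhpn1* and *Parp8* were named after values were seen. Of the cell type markers and immediate early genes, only sums and the genes without overlap are given, and the 3 most abundant were not named. Some genes and ratios of the fixed plan are not reported here. Gene positions and transcript sequences are from GENCODE vM21.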

Additional observations from a re-analysis of the deposited data

How the results depend on the processing

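The direction held under all 23 alternatives for *Mafa* (log2 fold change 0.47 to 0.60, adjusted p 8.9e-11 to 0.650), *Isl1* (-0.60 to -0.35, adjusted p 0.00213 to 0.650), *Nkx6-1* (0.23 to 0.50), *Nkx2-2* (0.074 to 0.20), *Insm1* (0.14 to 0.33), *Pax6* (-0.27 to -0.061), *Neurod1* (-0.16 to -0.0082) and *Rfx6* (-0.17 to -0.016). The alternatives refit the same libraries and are not independent. Males alone and the omission of either female library were nearly the same comparison, with *Mafa* at 0.60 in each. The main fit called 0 factors, DESeq2 called 2 (*Mafa* 0.563), DESeq2 with the replicate block 2 (*Mafa* 0.563179, adjusted p 7.09e-06) and edgeR without both male 1 libraries 1 (*Mafa* 0.552, adjusted p 0.0415). The last 2 settings and edgeR's robust prior were added after seeing the data. With the replicate block, edgeR gave adjusted p 0.0667 for *Mafa* and 0.0978 for *Isl1*, and 0 factors were called. The block called 1 exon (*Isl1*) and DESeq2 2, and the block changed no other call reported here, while it moved the calls over all genes from 0 to 23. In the other lists 1 gene was called by DESeq2 with the block (*G6pc2*, -0.42, adjusted p 0.0289) and 2 without both male 1 libraries (*Rbpjl* and *Sox9*). Signs turned for *Foxa2* with library size alone (-0.0282) and with the acinar term (-0.0119), and over the libraries left out in turn it ran from -0.0296 (without FXR+/+ male 2) to 0.143. They turned for *Pdx1* with the acinar term (0.0493), with exon counts summed (0.0360) and without both male 1 libraries (0.139), and over the libraries left out it ran from -0.201 to 0.149, positive without FXR-/- male 1. The cause was not tested. With 3 libraries per genotype, the intervals, not the counts of reads, limit the smaller differences.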

Other observations

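Markers of other islet and pancreas cells were summed per library. The 8 alpha cell markers were at 22163 to 38310 CPM in FXR+/+ and 27426 to 38898 CPM in FXR-/-, lowest in FXR+/+ male 2, and the 6 markers of delta and pancreatic polypeptide cells at 6567 to 9067 and 8076 to 11174 CPM. The 7 macrophage markers were at 110.3 to 147.7 and 147.2 to 173.9 CPM, with *C1qb*, *C1qc* and *Csf1r* above in all FXR-/- libraries. The 6 stroma markers were at 153 to 251 and 219 to 292 CPM, the 5 tested duct markers at 239 to 277 and 226 to 266 CPM, and the 5 glia and neuron markers at 11.1 to 16.6 and 17.6 to 19.6 CPM, without overlap, with *Gfap* above in all FXR-/- libraries. *Krt7*, a keratin counted among the duct markers, was below in all FXR-/- libraries (7.37% of all genes were), at 200.5 to 226.4 and 166.9 to 196.8 CPM. It made up most of the summed duct level and was the only duct marker that was lower. The other 4 tested duct markers were higher in FXR-/-. Of 4 B cell markers 2 were tested, at 20.2 to 33.0 and 14.5 to 23.9 CPM. None of these lists, the endothelial markers apart, had a gene called by edgeR or DESeq2. At an unadjusted p under 0.05, which 10.3% of all genes passed, there were 4 of 7 macrophage, 2 of 5 duct, 2 of 5 glia and neuron and 1 of 2 B cell markers, and 0 among the alpha, the delta and pancreatic polypeptide, and the stroma markers. Those of the macrophage, duct, and glia and neuron lists were higher in FXR-/-, and the B cell marker was lower. Of the 6 endothelial markers 4 were higher at an unadjusted p under 0.05, the largest share of these lists. Their sum was at 437 to 519 CPM in FXR+/+ and 538 to 867 CPM in FXR-/-. Among them *Cdh5*, *Plvap* and *Flt1* were above in all FXR-/- libraries and DESeq2 called *Plvap* (0.69 ± 0.17 in edgeR, adjusted p 0.00841 in DESeq2). The part of these cells in the difference of *Mafa* was not tested. With a term for acinar RNA in the fit, *Mafa* was at 0.58 and *Isl1* at -0.50 (adjusted p 0.1002 and 0.2024, edgeR).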
